A study of Homo sapiens with 4 samples.

Results

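MHC class II molecules are the surface receptors with which B cells and other antigen-presenting cells show peptides to CD4 T cells. Here 10 genes of this system were followed through 4 human leukaemia cell lines: the chains of HLA-DR (HLA-DRA, HLA-DRB1), HLA-DQ (HLA-DQA1, HLA-DQB1) and HLA-DP (HLA-DPA1, HLA-DPB1), the peptide exchange factor HLA-DM (HLA-DMA, HLA-DMB), the invariant chain CD74 and the transactivator CIITA. Every probe set whose gene symbol field in the platform annotation contained one of them was taken. This gave 30 of the 32968 probe sets on the array, 14 with 1 symbol and 16 with several.

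The translocation lines are RS4;11 and SEM, precursor B acute lymphoblastic leukaemia (ALL) lines with the translocation t(4;11), in which the MLL gene is rearranged. They are compared with NALM6 and REH, precursor B ALL lines lacking that translocation. All 4 lines were grown below confluency in RPMI medium with fetal bovine serum, the labels name no agent added, and total RNA of each was hybridised to 1 Affymetrix whole-transcript array. Each group therefore consists of 2 lines with 1 array apiece. A difference between groups includes everything else that differs between these lines, and p-values measure the spread between lines. Values of the translocation lines are given for RS4;11 and then SEM, and those of the other lines for NALM6 and then REH.

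The values are log2 expression levels as deposited, and the median over all probe sets was 6.46 in both translocation lines, 6.40 in NALM6 and 6.43 in REH. Levels of different probe sets cannot be set against each other, because probes differ in how strongly they bind. The labelled cell type was checked with markers. Of 9 measured precursor B markers, 9 and 7 lay above the array median in the translocation lines, and 9 and 8 in the lines without it. SEM had the lowest mean of these markers, 9.15 on the log2 scale against 10.81 in RS4;11, 11.09 in NALM6 and 10.72 in REH. CD24 and RAG1 (6.33 each) lay below the median in SEM, and VPREB1 (5.51) in REH. CD24, RAG1, CD79B (7.63), CD79A (11.05), IGLL1 (8.66) and CD22 (11.10) were lower in SEM than in any other line. So was EBF1 (11.79), read from a probe set shared with PDGFRB. By contrast, PAX5 (11.90) was highest in SEM, and VPREB1 (7.57 in SEM) was lowest in REH. Of 7 dendritic cell markers, 0 and 1 lay above the median in the translocation lines, the one being CLEC9A in SEM (8.97), and 0 in NALM6 and in REH. Of 8 monocyte and macrophage markers, 2 and 3 lay above it in the translocation lines, against 2 and 1 in the lines without it. LYZ was at 8.27 and 8.50 in the translocation lines, against 9.65 and 5.80 in the lines without it. CD68 was at 6.77 and 8.11, against 7.21 and 6.85, and CSF1R at 5.88 and 7.69, against 5.53 and 5.66. CD14 was between 4.59 and 4.81 in all 4 lines. The part of these markers in the class II values was not tested.

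As background, CIITA does not bind DNA. It is recruited to class II promoters by an enhanceosome of the RFX factors (RFX5, RFXAP, RFXANK), the trimer NF-Y and CREB, which sits on conserved elements named X and Y. The class II alpha and beta chains then assemble with CD74 in the endoplasmic reticulum. CD74 blocks the groove until it is degraded in endosomes, where HLA-DM swaps its last fragment, CLIP, for peptide and HLA-DO restrains HLA-DM. Leukaemic B-cell precursors usually carry HLA-DR on their surface.

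Promoter sequences are shown first, since CIITA is recruited to these elements. RefSeq windows of build GRCh38.p14 (250 bases before to 50 after a gene's start) were used for 8 of the 10 genes, HLA-DRA and CIITA being named only. Capitals mark the X core GNNACNGATG and the Y core ATTGG, either of them also as its reverse complement, which for Y is CCAAT. The letters of the X core were settled after these windows had been read, so that its count among them was partly fixed by that choice. Sequences run 5′ to 3′ on the gene's strand.
HLA-DRB1 (minus strand, chr6:32589880-32589936): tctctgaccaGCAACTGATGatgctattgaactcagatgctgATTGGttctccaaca
HLA-DQB1 (minus strand, chr6:32666731-32666787): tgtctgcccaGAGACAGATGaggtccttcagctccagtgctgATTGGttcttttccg
HLA-DMA (minus strand, chr6:32953162-32953219): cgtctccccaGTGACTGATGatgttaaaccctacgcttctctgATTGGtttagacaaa
HLA-DMB (minus strand, chr6:32941066-32941125): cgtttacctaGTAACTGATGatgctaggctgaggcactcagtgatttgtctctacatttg
HLA-DQA1 (plus strand, chr6:32637293-32637352): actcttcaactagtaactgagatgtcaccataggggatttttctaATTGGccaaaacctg
HLA-DPB1 (plus strand, chr6:33075870-33075929): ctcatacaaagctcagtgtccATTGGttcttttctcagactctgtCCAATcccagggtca
CD74 (minus strand, chr5:150412949-150413008): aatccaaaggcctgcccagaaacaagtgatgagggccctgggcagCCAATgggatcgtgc

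In HLA-DRB1 and HLA-DQB1 the X core was followed by the Y core after 22 bases, and in HLA-DMA after 23 bases. The other 6 of 9 member windows held no such pair, and 0.154% of all promoter windows hold an X core with a Y core following within 40 bases. The X core was found in 4 of 9 member windows, HLA-DMB being the other, and 2.33% of all 35116 promoter windows hold it. Nothing is read from either contrast, since the letters of the X core were chosen on the members. The Y core was found in 7 of 9 member windows and in 34.6% of all. That of HLA-DMB lies 22 bases before the start, outside the stretch printed above. The 2 windows of HLA-DPA1 held neither. A match is a description of letters and does not show that a factor binds.

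Across the 30 probe sets, none passed limma's threshold between the groups (adjusted p at least 0.101, threshold 0.05), while 12 of all 32968 did (0.0364%). At an unadjusted p under 0.05 there were 8 lower and 2 higher members, against a background of 4.02% lower and 4.97% higher over all probe sets. The chains of HLA-DP and the alpha chain of HLA-DR made up the 8 lower ones. The groups did not overlap in 15 members that were lower in the translocation lines (background 17.4%) and in 3 that were higher (background 24.1%). The 15 fall into 6 symbol fields, because the array carries up to 4 probe sets with the same symbols, and 8 of the 30 probe sets duplicate another's values exactly. The members' median difference was -0.19, beside 0.03 over all probe sets. Without SEM the members' median was -0.05 and without RS4;11 it was -0.39. In bulk RNA a smaller number of expressing cells and less RNA per cell cannot be told apart. With 2 lines in each group, a two-sided exact permutation of one gene's values gives no p below 0.33.

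**Figure D1:**
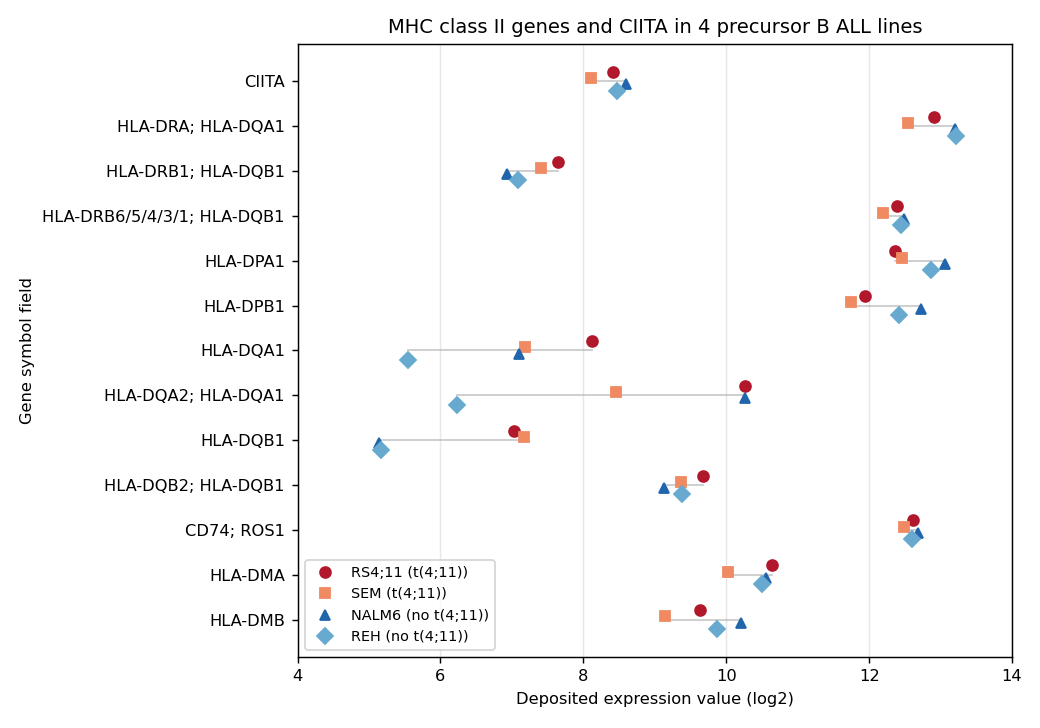
Deposited log2 value (x axis) of the brightest probe set of each gene symbol field (y axis) in the 4 lines, 1 point per line and array, with a grey bar for the range. HLA-DPA1, HLA-DPB1 and HLA-DRA lay lower in both translocation lines, whereas the widest ranges were those of HLA-DQA1, with REH lowest.

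**Figure D2:**
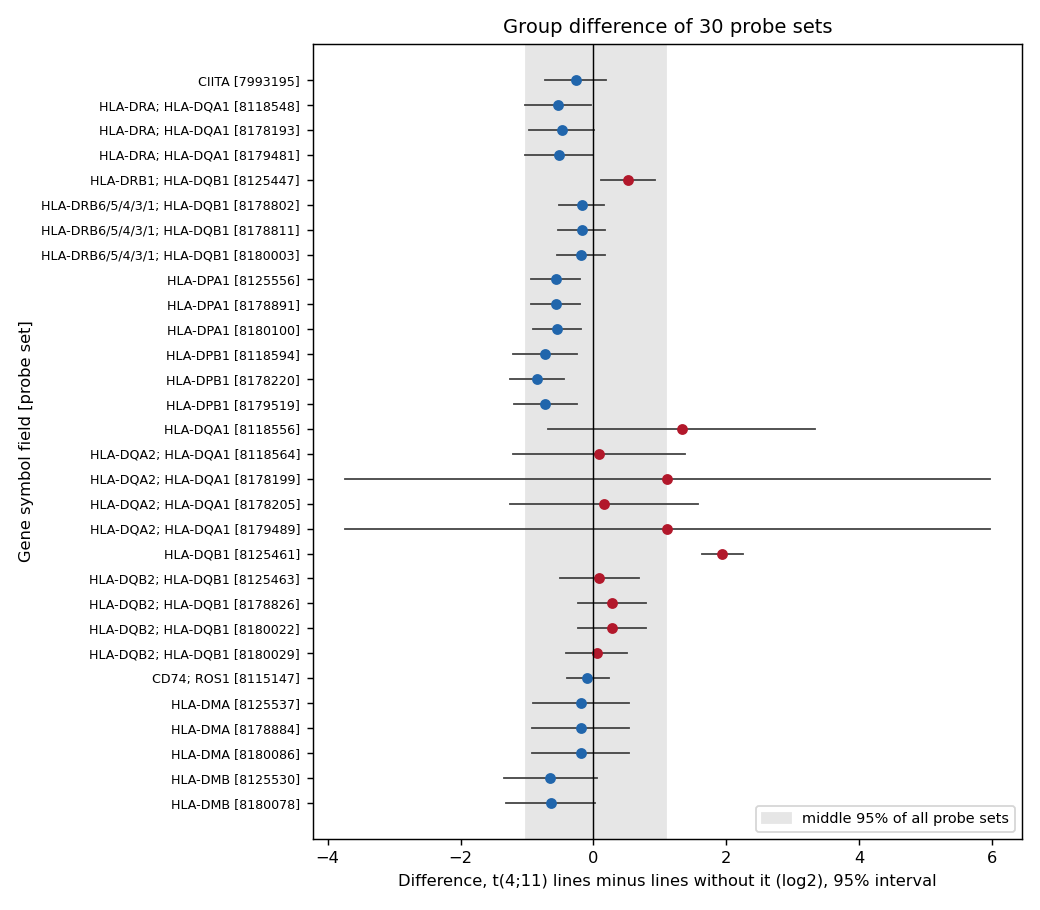
Difference between the groups on the log2 scale (x axis) for the 30 probe sets (y axis), with limma's 95% interval as a line and the middle 95% of all probe sets shaded from -1.01 to 1.09. Outside the shading lay HLA-DQB1 probe set 8125461 at 1.94, HLA-DQA1 probe set 8118556 at 1.33 and both identical HLA-DQA1/HLA-DQA2 probe sets at 1.11, and both HLA-DQA1 intervals of greatest width ran from -3.74 to 5.97.

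CIITA, the master regulator, lay within 0.49 on the log2 scale over the 4 lines, beside a median range of 0.38 over all probe sets and 0.71 over the members. Its only probe set was at 8.42 and 8.10 in the translocation lines, against 8.60 and 8.47 in the lines without it. SEM was lowest and NALM6 highest, and the groups did not overlap although RS4;11 and REH were nearly level. The group difference was -0.27 on the log2 scale (95% interval -0.73 to 0.19, limma adjusted p = 0.713). It was -0.11 without SEM and -0.43 without RS4;11. In the fit of all 4 lines a 2-fold change in either direction lies outside the interval.

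HLA-DR is the most abundant class II molecule on most B cells, and its alpha chain was lower in both translocation lines than in either other line, without passing the adjusted test. All 3 HLA-DRA probe sets are also annotated to HLA-DQA1, so that they are not specific by annotation. The brightest (8178193) was at 12.91 and 12.54 in the translocation lines, against 13.20 and 13.21 in the lines without it. SEM was the lowest line in all 3 probe sets, and NALM6 and REH differed by at most 0.01. The differences of the 3 probe sets lay between -0.53 and -0.48, that is 1.40-fold to 1.44-fold lower (SE 0.17, limma adjusted p from 0.535 to 0.561). Without SEM they lay between -0.33 and -0.29, and without RS4;11 between -0.72 and -0.67.

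The beta chains of HLA-DR were measured jointly. There, 3 probe sets list HLA-DRB1 together with HLA-DRB3, HLA-DRB4, HLA-DRB5, HLA-DRB6 and HLA-DQB1, and their signals from these genes cannot be separated. Probe set 8178802 was at 12.39 and 12.19 in the translocation lines, against 12.49 and 12.45 in the lines without it. The 4 lines thus lay within 0.30, and the difference was -0.18 (95% interval -0.52 to 0.16, limma adjusted p = 0.737), or -0.08 without SEM and -0.28 without RS4;11. Another probe set (8125447), annotated to HLA-DRB1 and HLA-DQB1, went the other way. It was at 7.64 and 7.41 in the translocation lines, against 6.93 and 7.09 in the lines without it, a difference of 0.52 (SE 0.14, limma unadjusted p = 0.0235, adjusted p = 0.483). The probe sets that name HLA-DRB1 thus differed in sign.

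HLA-DP, the third classical class II molecule, was lower in each translocation line than in either other line, for both of its chains, without passing the adjusted test. HLA-DPB1, the beta chain, was at 11.65 and 11.53 in the translocation lines, against 12.56 and 12.31 in the lines without it (probe set 8178220). Both translocation lines were below both others, and the gap exceeded the spread within each group (0.12 and 0.25). The difference was -0.85 (SE 0.14, 95% interval -1.25 to -0.45), or 1.80-fold lower, with a limma unadjusted p of 0.00509 that did not survive adjustment (adjusted p = 0.352). The other 2 HLA-DPB1 probe sets differed by -0.73 each.

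HLA-DPA1, the alpha chain partner, was at 12.30 and 12.43 in the translocation lines, against 13.04 and 12.84 in the lines without it (8125556). The groups again did not overlap, with RS4;11 lowest here rather than SEM. The difference was -0.57 (SE 0.13, 95% interval -0.94 to -0.20, limma adjusted p = 0.436), or 1.49-fold lower. Leaving out any one line gave -0.97 to -0.58 for HLA-DPB1 and -0.67 to -0.45 for HLA-DPA1 over their probe sets. Since the groups did not overlap, the sign could not turn in these fits. All 6 HLA-DP probe sets carry a single symbol.

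HLA-DQA1, the alpha chain of HLA-DQ, varied between individual lines more than between the groups. The most variable probe sets (8178199 and 8179489, with identical values) are annotated to HLA-DQA1 and its close relative HLA-DQA2. They were at 10.26 and 8.46 in the translocation lines, against 10.26 and 6.23 in the lines without it. By these probe sets the signal of REH was 16.4-fold below NALM6 and 16.3-fold below RS4;11, and SEM lay between. Whether the probes match the HLA sequences of each line equally was not tested, so these folds describe signal. The group difference of 1.11 (SE 1.66, limma adjusted p = 0.872) was smaller than the spread within either group, 1.80 and 4.03. It was -0.91 without REH and 3.13 without NALM6.

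The probe set annotated to HLA-DQA1 alone (8118556) was at 8.12 and 7.19 in the translocation lines, against 7.10 and 5.54 in the lines without it. SEM and NALM6 were nearly equal and REH was again lowest, 5.97-fold below RS4;11. Its difference was 1.33 (SE 0.69, limma adjusted p = 0.685). It was 0.87 without RS4;11, 0.56 without REH and 2.11 without NALM6. REH was the lowest line in all 5 HLA-DQA1 probe sets without HLA-DRA, and it was lower than each other line by at least 2-fold in 3 of the 30 members (background 0.955%). The other 2 shared probe sets had the smallest spread, at 6.56 and 5.68 in the translocation lines and 6.40 and 5.66 in the lines without it for 8118564. There SEM was as low as REH. The fold of REH below NALM6 thus depended on the probe set, at 16.4 for 8178199, 2.94 for 8118556 and 1.67 for 8118564. Why the probe sets differ was not tested, so no single fold can be given for HLA-DQA1.

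HLA-DQB1, the beta chain of HLA-DQ, gave different values depending on the probe set. The one annotated to HLA-DQB1 alone (8125461) was at 7.03 and 7.17 in the translocation lines, against 5.14 and 5.17 in the lines without it. No other member had its lines parted by group at 2-fold or more, a separation met in 1.30% of all probe sets. Its difference was 1.94 (SE 0.10, 95% interval 1.64 to 2.25), or 3.85-fold higher, and did not pass (limma unadjusted p = 0.000116, adjusted p = 0.101). Detection above background is not recorded, and the values of NALM6 and REH lay close to their arrays' lower quartiles (4.99 and 4.97), so that the fold may not start from an expressed level. Its annotation rests on 1 sequence record, which is not a RefSeq transcript and which no other probe set lists.

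The 4 probe sets annotated to HLA-DQB1 and HLA-DQB2, which list 3 or 4 RefSeq transcripts each, showed no such step. Probe set 8178826 was at 9.68 and 9.37 in the translocation lines, against 9.13 and 9.38 in the lines without it, so that SEM and REH were level. The 4 differences lay between 0.05 and 0.28 (limma adjusted p from 0.730 to 0.951), and the 95% interval of 8178826 reached 0.79 at most. Leaving out any one line gave 0.12 to 0.43 for 8178826. Which transcript 8125461 detects, and whether its probes match the sequence of each line equally, was not tested.

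**Figure D3:**
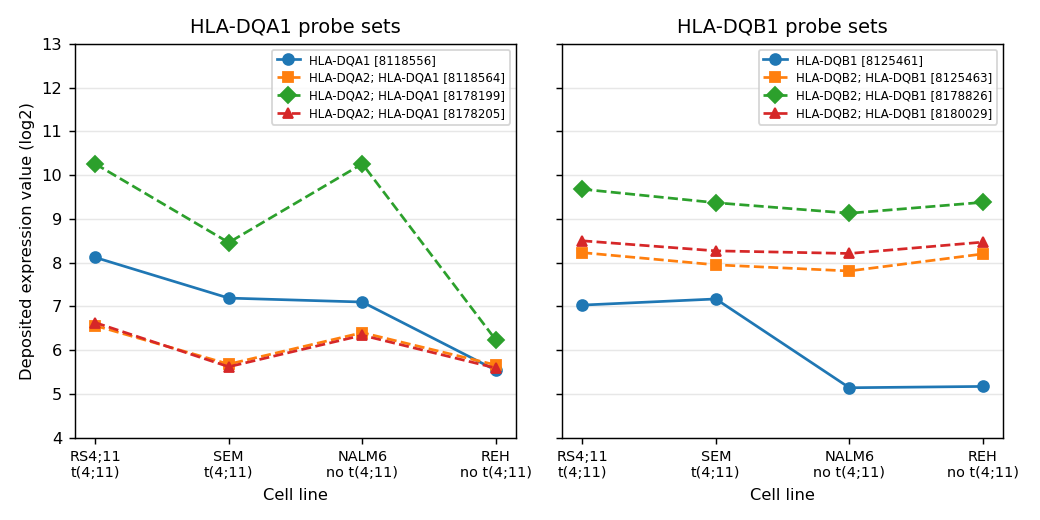
Deposited log2 value (y axis) in each line (x axis) for the probe sets of HLA-DQA1 (left) and HLA-DQB1 (right), with identical probe sets drawn once; solid lines mark 1 symbol and dashed lines several. HLA-DQA1 was at 6.23 in REH in 8178199, and HLA-DQB1 probe set 8125461 parted the groups, while each of those shared with HLA-DQB2 ranged over at most 0.56.

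CD74, the invariant chain that escorts class II chains to endosomes, was the steadiest member. Its probe set, which also lists ROS1 in the annotation, was at 12.62 and 12.49 in the translocation lines, against 12.69 and 12.60 in the lines without it. The 4 lines lay within 0.20 of each other. The difference was -0.09 (95% interval -0.40 to 0.23, limma adjusted p = 0.839), so that a change of 2-fold in either direction lies outside the interval, and it was -0.15 to -0.02 when any one line was left out.

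For HLA-DM, SEM was the lowest line in both chains. HLA-DMA was at 10.61 and 10.00 in the translocation lines, against 10.51 and 10.49 in the lines without it (8125537). The other 3 lines were nearly level, and the difference of -0.19 (SE 0.25, limma adjusted p = 0.850) became 0.11 without SEM. HLA-DMB was at 9.63 and 9.14 in the translocation lines, against 10.20 and 9.87 in the lines without it (8125530). Here the groups did not overlap and the difference was -0.65 (SE 0.24, 95% interval -1.35 to 0.05, limma adjusted p = 0.579), or 1.57-fold lower. It was -0.41 without SEM and -0.90 without RS4;11.

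Taking lines rather than groups, SEM was the lowest of the 4 lines in 16 of 30 members (background 23.8%), from 7 of 13 symbol fields, and NALM6 the highest in 16 (background 24.6%), from 8 fields. REH was lowest in 5 (background 35.9%), all of them HLA-DQA1 probe sets. None of the members lay 2-fold below the other lines in SEM (background 0.519%). No test was made between single lines, since each has 1 array.

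The class II chains outside the 10 genes were described in the same way. HLA-DOA, the alpha chain of the HLA-DM inhibitor HLA-DO, was at 8.99 and 8.79 in the translocation lines, against 9.49 and 9.64 in the lines without it, a difference of -0.68 (SE 0.13, limma unadjusted p = 0.00879, adjusted p = 0.394). HLA-DOB, its beta chain, was at 5.67 and 6.85 in the translocation lines, against 7.29 and 7.59 in the lines without it (difference -1.18, SE 0.47, adjusted p = 0.607). RS4;11 was the low line for HLA-DOB, unlike for HLA-DMA and HLA-DMB. HLA-DRB5 by its own probe set was at 7.28 and 7.25 in the translocation lines, against 7.38 and 7.57 in the lines without it. Of 6 measured chains on this list 0 passed in either direction, and 1 was lower at an unadjusted p under 0.05 in limma (background 4.02%). The median difference was -0.19, but 3 of the chains were read through probe sets already counted among the members.

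The enhanceosome partners of CIITA differed between the groups by at most 0.34 in size. Of the 7 genes 0 passed limma's adjusted threshold and 0 had an unadjusted p under 0.05, 5 lay below and 2 above 0, and the median difference was -0.04, beside 0.03 over all probe sets. RFX5, the RFX subunit mutated in one form of bare lymphocyte syndrome, was at 10.12 and 9.97 in the translocation lines, against 10.26 and 10.27 in the lines without it (difference -0.23, SE 0.11, limma adjusted p = 0.655). The other RFX subunits differed by -0.31 (RFXAP) and -0.03 (RFXANK). The NF-Y subunits, which bind the Y element, differed by -0.23 (NFYA), 0.34 (NFYB) and 0.13 (NFYC), and CREB1 by -0.04.

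Factors that act on the CIITA gene or with its product were described next. Of 20 measured genes 0 passed limma's adjusted threshold, and the median difference was 0.01. The groups did not overlap in 7 that were lower in the translocation lines (background 17.4%) and in 1 that was higher (background 24.1%). The one gene with an unadjusted p under 0.05 (background 4.02% lower) was IFNGR1, a chain of the interferon gamma receptor. Its difference was -0.77 (SE 0.15, limma unadjusted p = 0.0088, adjusted p = 0.394). IRF4, which with PU.1 acts on the B-cell promoter of CIITA, was at 10.93 and 9.74 in the translocation lines, against 11.49 and 5.67 in the lines without it. REH was thus the lowest line for IRF4. IRF8, a related factor, was at 8.47 and 10.09 in the translocation lines, against 5.75 and 8.67 in the lines without it. PRDM1, the plasma cell repressor of CIITA, was at 4.79 and 5.12 in the translocation lines, against 7.09 and 5.77 in the lines without it. BCL6, the germinal centre repressor, was at 10.99 and 9.24 in the translocation lines, against 7.32 and 10.76 in the lines without it. SPI1, which encodes PU.1, ranged only from 8.89 to 9.06. The part of these factors in the values of CIITA and of the class II chains was not tested.

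Genes of class II loading and turnover lay on both sides of 0. The groups did not overlap in 5 that were higher (background 24.1%) and in 2 that were lower (background 17.4%). Of the 14 genes 0 passed limma's adjusted threshold, and the median difference was 0.11. The 2 with an unadjusted p under 0.05 in limma were CTSD and SPPL2A, both higher (background 4.97%). LGMN, an asparaginyl endopeptidase that cuts antigens and the invariant chain, was at 6.02 and 10.47 in the translocation lines, against 5.54 and 9.14 in the lines without it. One line of each group was thus high. CTSL, a cathepsin, was at 4.50 and 4.47 in the translocation lines, against 4.41 and 6.83 in the lines without it. CTSS, the cathepsin that trims CD74 in B cells, lay within 8.03 to 8.51 in all 4 lines. CD83, which protects surface class II from ubiquitination, differed by -0.89 (SE 0.31, limma adjusted p = 0.565), and SPPL2A, the protease that clears the CD74 stub, by 0.79 (SE 0.23, adjusted p = 0.517). MARCHF1, the ligase that turns over surface class II in B cells and dendritic cells, was between 4.65 and 4.74 throughout.

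Costimulatory genes had 7 measured members and a median difference of 0.06. Of these 0 passed limma's adjusted threshold, and 1 (CD58) was lower at an unadjusted p under 0.05 (background 4.02%). CD86, a ligand of CD28, was at 5.01 and 8.46 in the translocation lines, against 5.05 and 5.01 in the lines without it. SEM alone was high. CD80, the other CD28 ligand, lay between 4.61 and 4.83. CD58, a ligand of CD2, was at 9.95 and 10.56 in the translocation lines, against 11.12 and 11.51 in the lines without it (difference -1.06, SE 0.29, limma adjusted p = 0.493). TNFSF4, the OX40 ligand, was at 9.71 and 5.08 in the translocation lines, against 6.16 and 7.60 in the lines without it, and CD40 differed by -0.28.

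NLRC5, the CIITA relative that controls class I genes, was at 8.43 and 7.65 in the translocation lines, against 9.96 and 7.75 in the lines without it. All 6 measured genes of its list lay below 0 (background 43.8%), 0 passed limma's test (0 at an unadjusted p under 0.05), and the median difference was -0.51. B2M, the class I light chain, was at 12.01 and 12.07 in the translocation lines, against 12.26 and 12.49 in the lines without it (difference -0.34, SE 0.13, limma adjusted p = 0.593). TAP1 and TAP2, the peptide transporter, differed by -1.39 and -0.36. The shared probe set of HLA-F and HLA-B differed by -0.65, and that of HLA-C and HLA-B by -0.37.

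**Figure D4:**
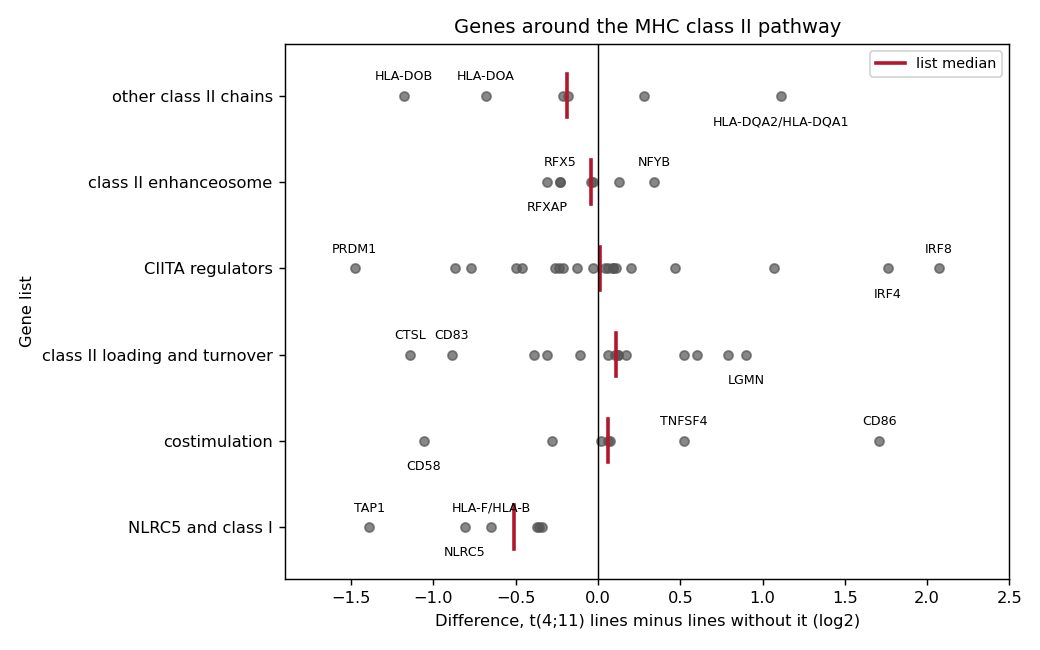
Difference between the groups on the log2 scale (x axis) for the genes of 6 lists (y axis), 1 point per gene, with the list median as a red bar and the 3 genes of largest size named. The enhanceosome genes lay between -0.31 and 0.34, whereas CIITA regulators ran from -1.48 to 2.07.

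Genes with the most similar pattern over the 4 lines were sought by the root-mean-square difference of centred log2 values. Among 3539 other genes that ranged over at least 2-fold, HLA-DQB1 by probe set 8125461 was nearest to DCLK2 (0.09), OCA2, EXPH5 and DPT (0.12 each) and KLHL14 (0.14). With 4 lines such likeness is a description, and it was computed on the same arrays. CIITA and HLA-DRA themselves ranged over less than 2-fold (0.49 and at most 0.73 on the log2 scale), which keeps genes of their own amplitude out of that comparison, so no neighbours of theirs are given.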

How the data were processed

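The authors deposited log2 values, 1 per probe set and array, for which the submitters' processing notes name RMA and Partek. RMA equalises the distributions of the arrays, so that array-wide shifts in signal cannot be seen. Software versions are not given in the sources used. The log2 scale was inferred from the values. Probe sets were named from the platform annotation: 19310 have 1 symbol, 1752 several and 11906 none. Groups follow the labels. RS4;11 and NALM6 were numbered replicate 1 and SEM and REH replicate 2, which pairs no lines.

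Differences were tested with limma 3.58.1 (lmFit, eBayes) in R 4.3.3 on all 32968 probe sets, two-sided, with Benjamini-Hochberg adjustment over all of them (2 residual and 1.54 prior degrees of freedom). The fit was tested on simulated data. Separation means that the lower line of one group exceeds the higher line of the other by at least 1. A list gene was read from its brightest probe set with 1 symbol, or with several where there was none. All members were named, with the enhanceosome and up to 4 genes of largest difference per list and some further list genes chosen after their values were seen. The number of arrays limits the precision. Members, lists and tests were chosen with earlier results of these data known. Tables and figures used Python 3.11.15, pandas 2.3.3, numpy 2.4.6 and matplotlib 3.10.9.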

Additional observations from a re-analysis of the deposited data

How the results depend on the processing

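None of the members' probe sets passed limma's threshold under any alternative run (all 30, or the 7 kept with 1 probe set per gene), with a lowest adjusted p of 0.0914 (arrays centred on their medians) for HLA-DQB1 probe set 8125461 and 0.552 without moderation. The number of probe sets past the threshold over the whole array depended on the choice, with 6 higher and 6 lower as reported, 13 higher with centred arrays, 15 higher without dim probe sets, 2 higher and 2 lower with 1 probe set per gene, 2 higher and 1 lower with an intensity trend, and 1 higher and 0 lower without moderation. Leaving out any line gave 0 in both directions, with 2270 to 4151 probe sets at an unadjusted p under 0.05 in limma. Those fits have 1 residual degree of freedom, and the lone line of a group is assumed to vary like the pair of the other, so the loss of calls says nothing about stability. The members' median lay between -0.39 and -0.05 when 1 line was left out, and the members separated by at least 2-fold numbered 1 to 4. Runs without dim probe sets, with 1 probe set per gene, with an intensity trend, with robust eBayes or without moderation leave each difference unchanged. They could not turn a sign, nor could leaving out a line where the groups do not overlap. Among the members' differences, such values included, 293 of the alternative values kept direction and call and 14 turned sign. One of these was -0.0025 for HLA-DQB1/HLA-DQB2 probe set 8180029 with centred arrays.

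The others came from leaving out a line. The ranges were -0.35 to 0.53 (8118564), -0.34 to 0.67 (8178205) and -0.91 to 3.13 (8178199 and 8179489) for HLA-DQA1/HLA-DQA2, -0.11 to 0.28 (8125463) and -0.08 to 0.18 (8180029) for HLA-DQB1/HLA-DQB2, and -0.50 to 0.11 (8125537) and -0.50 to 0.12 (8178884 and 8180086) for HLA-DMA. Fewer lines had to be parted or averaged in these fits, and the cause of the other shifts was not tested. No paired analysis was possible because the labels give no replicate numbers. Detection above background is not recorded, which limits the dim probe sets most.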

Other observations

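Because HLA-DQA1 varied most, the genes nearest to its shared probe set 8178199 were also listed, a choice made after its values had been seen. They were SERPINF1 (root-mean-square difference 0.33), ADARB1 (0.36), PHYHD1 and SCML4 (0.41 each) and ZNF426 (0.47). SERPINF1 was at 7.93 and 6.74 in the translocation lines, against 7.86 and 4.53 in the lines without it.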
